A study of Homo sapiens with 6 samples.

Results

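The 10 genes described here encode the enzymes that make and break down polyamines in human cells, together with the proteins that control the first enzyme of the pathway. They are ODC1, AMD1, SRM, SMS, SAT1, SMOX, PAOX, OAZ1, OAZ2 and AZIN1, taken by their official symbols from a table of 19240 genes. All 10 were found in the table and all 10 had enough counts to be tested. They were measured in A549, an established line of human lung carcinoma cells, in 3 libraries of cells kept for 48 h without glucose (0 mM) and 3 libraries of cells kept for 48 h with 25 mM glucose. The labels give no other difference between the groups and name no clone, and the study's title concerns growth of tumor cells without glucose.

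Putrescine, spermidine and spermine are small, positively charged amines that bind nucleic acids and are needed for cell growth. ODC1 makes putrescine from ornithine, AMD1 makes the aminopropyl donor from S-adenosylmethionine, and SRM and SMS use that donor to build spermidine and then spermine. SAT1 acetylates spermidine and spermine for export or for oxidation by PAOX, and SMOX oxidizes spermine directly. Antizymes, encoded by OAZ1 and OAZ2, bind ODC1, send it to the proteasome and limit polyamine uptake, and AZIN1 binds antizyme in place of ODC1. Translation of antizyme needs a shift of the reading frame that polyamines favor, so that high polyamine levels shut down their own synthesis.

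Reads were counted at transcript 3' ends, and levels are given as CPM, the counts of a gene per 1000000 counts of the scaled library. The libraries held 11086416 to 14060313 gene counts without glucose and 6701004 to 14259943 with glucose. Whether the 3 libraries of a group are separate cultures is not stated, so every p-value reflects the spread among libraries that may be technical repeats. In a principal component analysis of all tested genes, the first component separated the groups, and on the second the libraries without glucose scored 19.3, −20.2 and −4.25. Replicate 1 with glucose stood apart on the second component, at −38.6, while replicates 2 and 3 of that group were at 23.9 and 19.9. That replicate 1 also had the fewest gene counts of any library (6701004). All 5 epithelial markers listed (KRT8, KRT18, KRT19, EPCAM and CDH1) were detected, with a summed level of 1510 to 1818 CPM without glucose and 3116 to 3892 CPM with glucose. KRT8 and KRT18, the keratins of simple epithelia, fell without glucose, with log2 fold changes of −1.18 and −0.90 (adjusted p = 0.00150 and 0.00473 by edgeR's quasi-likelihood test), and these 2 make up most of the summed level. KRT19, EPCAM and CDH1 did not pass, with log2 fold changes of −0.49, −0.43 and 0.42, and CDH1 was higher in every library without glucose, at 7.51 to 8.15 CPM, against 4.57 to 6.72 CPM with glucose. Of 6 markers of other cell types, CD3E, DCN and VWF had no count in any library, and PTPRC and PECAM1 had at most 4 counts in a library. COL1A1 had 4.21 to 5.37 CPM without glucose and 10.7 to 14.1 CPM with glucose. As the only marker of the 6 that was tested, COL1A1 fell, with a log2 fold change of −1.37 (adjusted p = 0.00263 by edgeR's quasi-likelihood test). The summed level of these 6 markers was 4.36 to 5.67 CPM without glucose and 11.9 to 14.1 CPM with glucose, and the part of either marker list in the results below was not tested. The libraries are of bulk RNA, and a level in CPM is a share of the scaled library. A lower level can thus come from fewer cells that express a gene or from less of its RNA per cell. It can also come from a larger share of other transcripts, and these cannot be told apart here.

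The frame shift that antizyme translation needs is written in the coding sequence of OAZ1 and OAZ2, and the sites are shown because both transcripts changed in the same direction. In each, the first reading frame ends at a TGA stop codon that follows a TCC codon, and the annotated protein is read by leaving out the T of that stop. In the lines below, 30 bases stand on either side of that T, and capitals mark the TCC codon and the stop (GENCODE release 29, GRCh38).
OAZ1, chr19:2271413-2271473, plus strand: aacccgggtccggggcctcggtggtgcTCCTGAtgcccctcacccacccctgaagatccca
OAZ2, chr15:64691485-64691545, minus strand: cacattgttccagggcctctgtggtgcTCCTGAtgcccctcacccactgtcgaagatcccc
The first frame holds 68 codons before the stop in OAZ1 and 32 in OAZ2, and the reading that leaves out the T holds 228 and 189 codons. The windows of the 2 genes share 49 of 61 bases, including an unbroken run of 27 around the omitted T. Counts at 3' ends measure the transcripts, whichever way they are read in translation, and say nothing of how often the frame shifts.

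Without glucose, transcripts of the catabolic enzymes SAT1 and SMOX and of the synthesis enzyme AMD1 rose, and transcripts of the antizymes OAZ1 and OAZ2 fell. SAT1 was 3.37-fold and SMOX 2.57-fold higher, AMD1 was 1.62-fold higher, OAZ2 was 2.35-fold lower and OAZ1 1.76-fold lower. ODC1, SRM, SMS, AZIN1 and PAOX did not pass the test. Calls rest on an adjusted p under 0.05 by edgeR's quasi-likelihood test with Benjamini-Hochberg adjustment over the 11886 genes tested. By that rule 3 of the 10 genes were higher, against 11.6% of all genes tested, and 2 were lower, against 10.7%. In either direction 5 of 10 were called, against 22.3% of all genes tested. The CPM of the groups did not overlap for the same 5 genes, a share near the 40.4% of all genes tested. The calls of AMD1 and OAZ1 did not hold in every alternative analysis: with a replicate block, 2 members were higher and 1 lower. The members were chosen with earlier results of these data known, so their share of calls is not an independent comparison with all genes. The median log2 fold change of the 10 genes was 0.09, and that of all genes tested was 0.02.

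**Figure D1:**
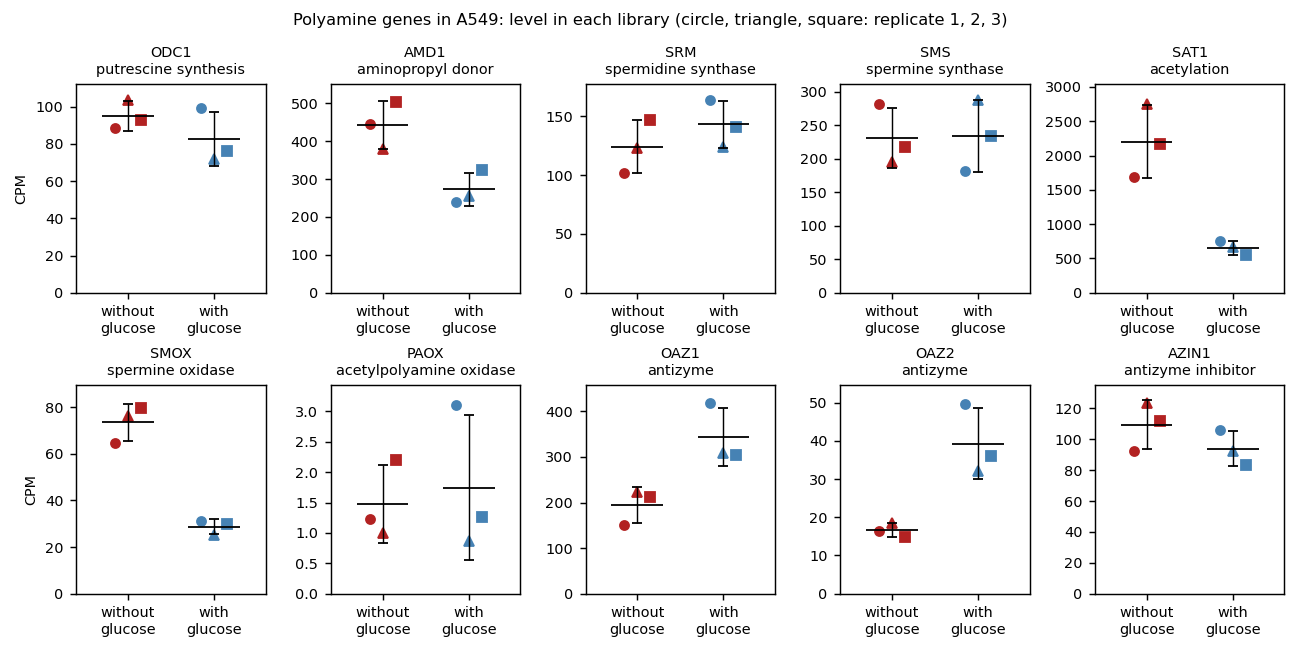
Level of each polyamine gene in CPM (vertical axes, each starting at 0) in the 3 libraries without glucose (red, left) and the 3 with glucose (blue, right); the long line is the mean and the bar the SD. For SAT1, SMOX and AMD1 every library without glucose lies above every library with glucose, for OAZ1 and OAZ2 every one lies below, and the groups overlap for the other 5 genes.

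SAT1 (Entrez 6303), the acetyltransferase that commits spermidine and spermine to export or oxidation, had 1687, 2754 and 2166 CPM in replicates 1, 2 and 3 without glucose and 752, 664 and 545 CPM with glucose. The lowest library without glucose was thus above the highest with glucose. The means were 2202 ± 535 CPM without glucose and 654 ± 104 CPM with glucose (SD, n = 3 per group). On the log2 scale SAT1 was higher by 1.75 ± 0.23 (SE; adjusted p = 3.13e-04 by edgeR's quasi-likelihood test). SAT1 stood at place 242 of the 11886 tested genes ordered from the highest log2 fold change down. In raw reads, SAT1 took 0.161%, 0.282% and 0.209% of the gene counts of the libraries without glucose and 0.0795%, 0.0670% and 0.0544% of those with glucose. Replicate 2 was the highest and replicate 1 the lowest of the libraries without glucose on either measure.

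SMOX (Entrez 54498), which oxidizes spermine back to spermidine and releases hydrogen peroxide, had 64.6, 76.2 and 79.8 CPM without glucose and 31.1, 25.0 and 29.9 CPM with glucose. The groups were well apart, with means of 73.5 ± 7.92 CPM without glucose and 28.6 ± 3.24 CPM with glucose (SD, n = 3 per group). SMOX was higher by 1.36 ± 0.20 (SE) on the log2 scale (adjusted p = 6.91e-04 by edgeR's quasi-likelihood test). These levels rest on 682, 996 and 1084 counts without glucose and 220, 260 and 425 counts with glucose.

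PAOX (Entrez 196743), the peroxisomal oxidase that acts on the acetylated products of SAT1, was near the lower limit of what could be tested. It had 13, 13 and 30 counts without glucose and 22, 9 and 18 counts with glucose. The groups overlapped fully, and the log2 fold change of −0.17 ± 0.59 (SE) left its direction undetermined at this depth (adjusted p = 0.860 by edgeR's quasi-likelihood test). Its sign turned on leaving out replicate 2 without glucose (0.04) or replicate 1 with glucose (0.46).

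On the synthesis side, AMD1 (Entrez 262) had 445, 379 and 504 CPM without glucose and 239, 256 and 323 CPM with glucose. AMD1 is S-adenosylmethionine decarboxylase, whose product supplies the aminopropyl group for both spermidine and spermine. The groups did not overlap. AMD1 was higher by 0.70 ± 0.21 (SE) on the log2 scale (adjusted p = 0.0308 by edgeR's quasi-likelihood test). The call did not pass without replicate 1 (adjusted p = 0.0667) or replicate 3 (0.126) of the cells without glucose, or without replicate 1 (0.0697) or replicate 2 (0.109) with glucose, by the same edgeR test.

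ODC1 (Entrez 4953), the ornithine decarboxylase that starts the pathway, had 88.6, 104 and 92.5 CPM without glucose and 99.3, 72.1 and 76.4 CPM with glucose. Replicate 1 with glucose lay within the range of the libraries without glucose, so the groups overlapped. The log2 fold change was 0.20 ± 0.20 (SE) and did not pass (adjusted p = 0.503 by edgeR's quasi-likelihood test). Without replicate 1 with glucose, the library that stood apart on the second component, it was 0.35 ± 0.20 and again did not pass (adjusted p = 0.232 by edgeR). Dropping replicate 2 without glucose gave a log2 fold change of 0.12, and dropping replicate 2 with glucose gave 0.11.

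SRM (Entrez 6723), the spermidine synthase, had 102, 123 and 147 CPM without glucose and 164, 124 and 141 CPM with glucose. SMS (Entrez 6611), the spermine synthase, had 281, 195 and 217 CPM without glucose and 181, 288 and 234 CPM with glucose. For both aminopropyl transferases the spread within a group was as wide as the distance between the groups. Their log2 fold changes were −0.20 ± 0.21 and −0.02 ± 0.23 (SE), and neither passed (adjusted p = 0.517 and 0.961 by edgeR's quasi-likelihood test). For SRM, dropping replicate 1 or 3 without glucose gave −0.08 or −0.35, and dropping replicate 1 with glucose gave −0.10. The sign for SMS turned on leaving out replicate 2 or 3 without glucose or replicate 2 with glucose (0.07, 0.01 and 0.15).

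Among the regulators of ODC1, OAZ2 (Entrez 4947) had 16.4, 18.6 and 14.9 CPM without glucose and 49.7, 32.1 and 36.0 CPM with glucose. Every library without glucose was below every library with glucose, and replicate 1 with glucose was the highest of all. OAZ2 had a log2 fold change of −1.23 ± 0.22 (SE; adjusted p = 0.00234 by edgeR's quasi-likelihood test). Without that replicate it was −1.03 ± 0.21, and it still passed (adjusted p = 0.0058 by edgeR).

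OAZ1 (Entrez 4946), the antizyme first described, had 150.3, 224 and 212 CPM without glucose and 418, 309 and 304 CPM with glucose. The groups did not overlap, and again replicate 1 with glucose was the highest library. OAZ1 had a log2 fold change of −0.81 ± 0.23 (SE; adjusted p = 0.0220 by edgeR's quasi-likelihood test). OAZ1 no longer passed when replicate 1 with glucose was left out (log2 fold change −0.65, adjusted p = 0.0574), nor on leaving out replicate 1 (0.0789) or 3 (0.0554) without glucose, by the same edgeR test.

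AZIN1 (Entrez 51582), an ODC1-like protein with no enzyme activity that takes antizyme away from ODC1, had 92.3, 124 and 112 CPM without glucose and 106, 92.4 and 83.6 CPM with glucose. The groups overlapped, and the log2 fold change of 0.22 ± 0.20 (SE) did not pass (adjusted p = 0.466 by edgeR's quasi-likelihood test). Its log2 fold change was 0.11 when replicate 2 without glucose was left out, the lowest such value, and 0.33 when replicate 1 of that group was, the highest. Among the regulators of ODC1, OAZ1 and OAZ2 thus fell, while AZIN1 did not pass, nor did OAZ3, another antizyme gene, which had few counts (log2 fold change −0.88 ± 0.75, adjusted p = 0.426 by edgeR's quasi-likelihood test).

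**Figure D2:**
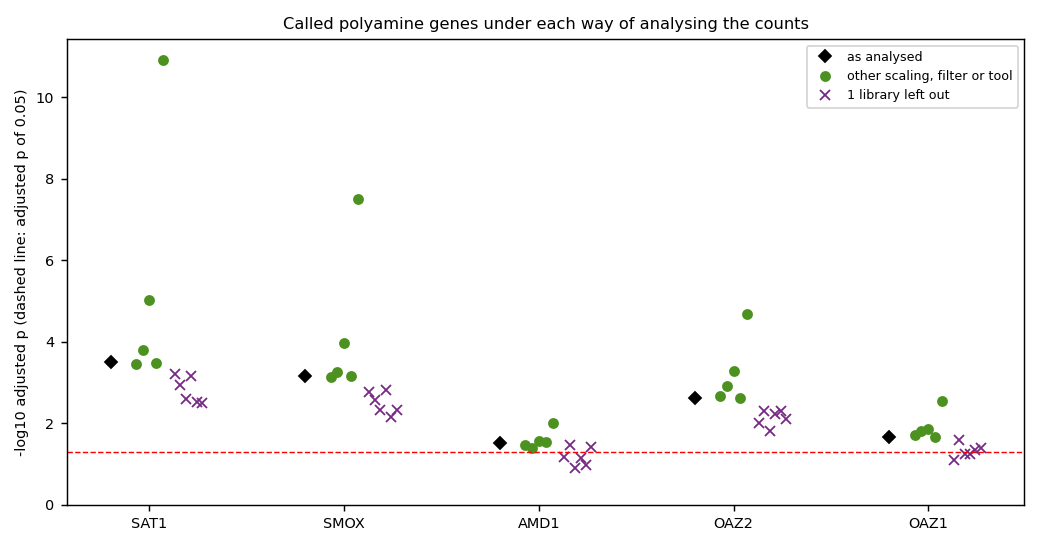
Adjusted p on a −log10 scale (vertical axis) of the 5 genes that passed, as analysed (diamond), with another scaling, filter or tool (circles) and with 1 library left out (crosses); the dashed line is an adjusted p of 0.05. SAT1, SMOX and OAZ2 lie above the line in every case shown, while AMD1 falls below it with 4 and OAZ1 with 3 of the 6 libraries left out. A fit with a replicate block is not shown, and in it AMD1 and OAZ1 did not pass (adjusted p = 0.0708 and 0.0630 by edgeR).

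Ratios of 2 transcripts within 1 library do not depend on how libraries are scaled, and 7 such ratios between members were compared. They were tested with a two-sided exact permutation test over libraries, for which 3 against 3 allows no p below 0.1. The log2 ratio of ODC1 to OAZ1 counts was −0.76, −1.11 and −1.19 without glucose and −2.07, −2.10 and −1.99 with glucose. The ratio of the enzyme's transcript to that of its inhibitor was thus higher in every library without glucose, by 1.03 on the log2 scale (exact permutation p = 0.1, adjusted over the 7 ratios 0.14). The log2 ratio of AZIN1 to OAZ1 was −0.70, −0.85 and −0.92 without glucose and −1.98, −1.74 and −1.86 with glucose, a difference of 1.03 with the same exact p. The fall of OAZ1 thus shows against both ODC1 and AZIN1 transcripts of the same library, and the 2 ratios share the OAZ1 counts. All 7 ratios use the same counts as the tests of single genes and add no separate evidence.

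Relative to SAT1 transcripts of the same library, those of the synthesis genes ODC1 and AMD1 were lower without glucose. The log2 ratio of ODC1 to SAT1 was −4.25, −4.73 and −4.55 without glucose and −2.92, −3.20 and −2.84 with glucose, a difference of −1.52. That of AMD1 to SAT1 was −1.92, −2.86 and −2.10 without glucose and −1.65, −1.38 and −0.75 with glucose, a difference of −1.03. In both, every library without glucose was below every library with glucose (exact permutation p = 0.1, the smallest possible). AMD1 passed as higher in the test of single genes, with a smaller log2 fold change than SAT1.

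The remaining ratios compare genes of like role. The log2 ratio of SMOX to PAOX was 5.66, 6.21 and 5.15 without glucose and 3.29, 4.78 and 4.52 with glucose, a difference of 1.47 with no overlap (exact permutation p = 0.1), and it rests on the few counts of PAOX. The log2 ratio of SMS to SRM differed by 0.20 between the groups, within their spread (exact permutation p = 0.7), and that of OAZ2 to OAZ1 by −0.40 with overlapping groups (exact permutation p = 0.2). The OAZ2 to OAZ1 difference was −0.25 when replicate 3 without glucose was left out.

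**Figure D3:**
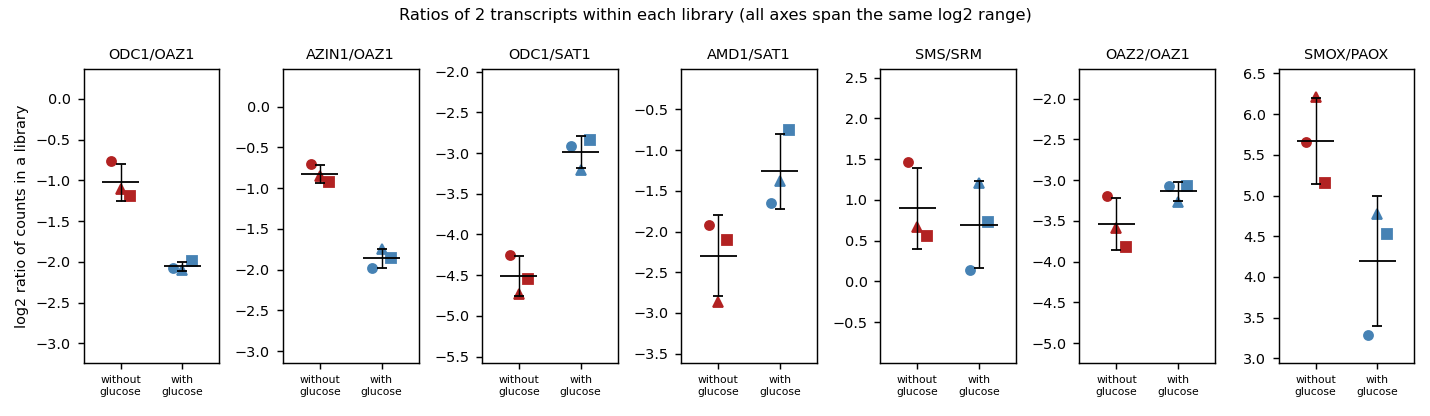
Log2 ratio of the counts of 2 polyamine genes within each library (vertical axes, all of the same length) in cells without glucose (red, left) and with glucose (blue, right); the long line is the mean and the bar the SD of 3 libraries. ODC1/OAZ1, AZIN1/OAZ1 and SMOX/PAOX are higher and ODC1/SAT1 and AMD1/SAT1 lower in every library without glucose, while SMS/SRM and OAZ2/OAZ1 overlap between the groups.

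The promoters of ODC1, AMD1 and SAT1 are shown because these 3 genes encode the steps at which flux through the pathway is known to be set, and their transcripts did not move alike. Each line gives the 250 bases before the first listed transcript start, and capitals mark a match to any motif searched (RefSeq, GRCh38.p14).
SAT1, chrX:23782923-23783172, plus strand: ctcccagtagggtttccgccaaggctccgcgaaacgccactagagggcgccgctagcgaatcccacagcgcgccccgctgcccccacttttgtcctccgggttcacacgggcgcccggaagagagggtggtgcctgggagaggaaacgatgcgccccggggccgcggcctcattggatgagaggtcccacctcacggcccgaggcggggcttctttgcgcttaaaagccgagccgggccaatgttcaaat
AMD1, chr6:110874535-110874784, plus strand: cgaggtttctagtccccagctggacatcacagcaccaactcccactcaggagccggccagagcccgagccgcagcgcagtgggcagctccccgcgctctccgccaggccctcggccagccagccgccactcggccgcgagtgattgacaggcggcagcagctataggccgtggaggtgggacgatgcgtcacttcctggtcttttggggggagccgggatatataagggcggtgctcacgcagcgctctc
ODC1, chr2:10448328-10448577, minus strand: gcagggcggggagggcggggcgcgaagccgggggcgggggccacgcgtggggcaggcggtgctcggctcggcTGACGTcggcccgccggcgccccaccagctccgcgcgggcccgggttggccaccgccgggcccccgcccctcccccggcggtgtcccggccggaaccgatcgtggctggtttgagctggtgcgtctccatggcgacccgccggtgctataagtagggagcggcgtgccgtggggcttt
Windows were read for 7 of the 10 members (not for AZIN1, SMOX and PAOX), 10 windows in all. Of these, 2 windows of AMD1 hold the same sequence shifted by 1 base. The 5 motifs were searched on both strands in a way that allows overlapping matches, and none of the matches found overlapped. The E-box CACGTG, bound by MYC and MAX, was in 2 of the 10 windows, that of SRM and the second start of ODC1, against 6.34% of the 35116 windows of all genes. TGACGT, a core shared by cyclic AMP and XBP1 response elements, was in 1, the ODC1 window printed, against 7.10% of all windows. The ATF4 and C/EBP composite TGATGNAA, the endoplasmic reticulum stress element and the antioxidant response core TGACNNNGC matched none of the 10 windows, against 3.14%, 0.0740% and 10.9% of all windows. The motifs found were thus in windows of genes that did not pass, and no match in SAT1, AMD1, OAZ1 or OAZ2 says only that these letters are not in the windows searched.

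Of 30 genes listed next to the pathway, 23 were tested. Of these, 1 was higher, against 11.6% of all genes tested, 2 were lower, against 10.7%, and 20 did not pass. In either direction 3 were called (13.0%), against 22.3% of all genes tested, and the difference between these shares was not tested. The median log2 fold change of the 23 genes was 0.02, equal to that of all genes tested to 2 decimals. The genes listed act around ornithine, putrescine and S-adenosylmethionine, salvage the methylthioadenosine left by SRM and SMS, take part in making hypusine, or carry polyamines. The rest are relatives of the members, and the deacetylase HDAC10.

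SLC3A2 (Entrez 6520), the heavy chain of several amino acid carriers and also named in polyamine export, rose to 1266, 1128 and 1076 CPM without glucose, against 676, 465 and 483 CPM with glucose. The groups did not overlap, and SLC3A2 was higher by 1.10 ± 0.21 (SE) on the log2 scale (adjusted p = 0.00305 by edgeR's quasi-likelihood test). It was the only one of 6 tested transport genes that passed. ATP13A2 and ATP13A3, lysosomal and endosomal polyamine pumps, had log2 fold changes of 0.40 ± 0.29 and 0.38 ± 0.28, and SLC18B1, a vesicular carrier, 0.60 ± 0.30; their groups overlapped. SLC22A3 and SLC47A1, organic cation carriers, had log2 fold changes of −0.12 ± 0.20 and −0.47 ± 0.20 and did not pass either. The groups did not overlap for SLC47A1, at 17.5, 19.5 and 19.8 CPM without glucose and 28.1, 28.1 and 22.9 CPM with glucose (adjusted p = 0.106 by edgeR's quasi-likelihood test).

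MRI1 (Entrez 84245), the isomerase of the methionine salvage pathway that recycles methylthioadenosine, fell to 23.2, 14.1 and 22.0 CPM without glucose, against 42.1, 41.4 and 39.4 CPM with glucose. The fall was −1.05 ± 0.22 (SE) on the log2 scale (adjusted p = 0.00573 by edgeR's quasi-likelihood test). The other 4 salvage genes, MTAP, APIP, ENOPH1 and ADI1, did not pass. MTAP, which takes the first step of salvage, had 62, 62 and 151 counts without glucose and 55, 73 and 121 counts with glucose, with overlapping groups.

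DOHH (Entrez 83475), the hydroxylase that completes hypusine on the translation factor eIF5A, fell to 9.38, 8.95 and 10.5 CPM without glucose, against 20.9, 16.9 and 19.1 CPM with glucose. DOHH had a log2 fold change of −0.97 ± 0.22 (SE; adjusted p = 0.00760 by edgeR's quasi-likelihood test). DHPS, the synthase that takes the aminobutyl part of hypusine from spermidine, had a log2 fold change of 0.07 ± 0.22 and overlapping groups. EIF5A, whose product carries hypusine, was named after its values were seen: it had 238, 254 and 239 CPM without glucose and 382, 301 and 394 CPM with glucose, and missed the threshold (log2 fold change −0.56 ± 0.19, adjusted p = 0.0571 by edgeR's quasi-likelihood test). Of 12 alternative analyses, EIF5A passed with RLE scaling (0.0499), with library totals as scaling (0.0467) and in DESeq2 (0.0181). It did not pass in the other 9, with adjusted p of 0.0565 to 0.176 by edgeR.

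Of 9 genes listed under ornithine and methionine supply, 6 were tested and none passed by edgeR's quasi-likelihood test. The 1 with an unadjusted p under 0.05 was ALDH18A1 of ornithine and proline synthesis (log2 fold change −0.54 ± 0.20, adjusted p = 0.0685). Of 12 alternative analyses, ALDH18A1 passed only in DESeq2 (0.0455). MAT2A, the synthetase that makes S-adenosylmethionine for AMD1, had a log2 fold change of 0.02 ± 0.20, and OAT, the ornithine aminotransferase, 0.04 ± 0.23. The arginase gene ARG1, the ornithine transcarbamylase gene OTC and the SAT1-related gene SATL1 had no count in any library, below the floor of 3 counts, and MAT1A, the liver form of the synthetase, had at most 2 in a library. AZIN2, HDAC10 and SLC12A8 also had too few counts to be tested, with at most 6, 5 and 15 in a library. The relatives of the members that could be tested, OAZ3 and SAT2, did not pass in edgeR or DESeq2. SAT2, the 1 of them with an unadjusted p under 0.05 in edgeR, had 158, 135 and 142 CPM without glucose and 89.5, 98.7 and 114 CPM with glucose (log2 fold change 0.52 ± 0.20, adjusted p = 0.0727 by edgeR's quasi-likelihood test).

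**Figure D4:**
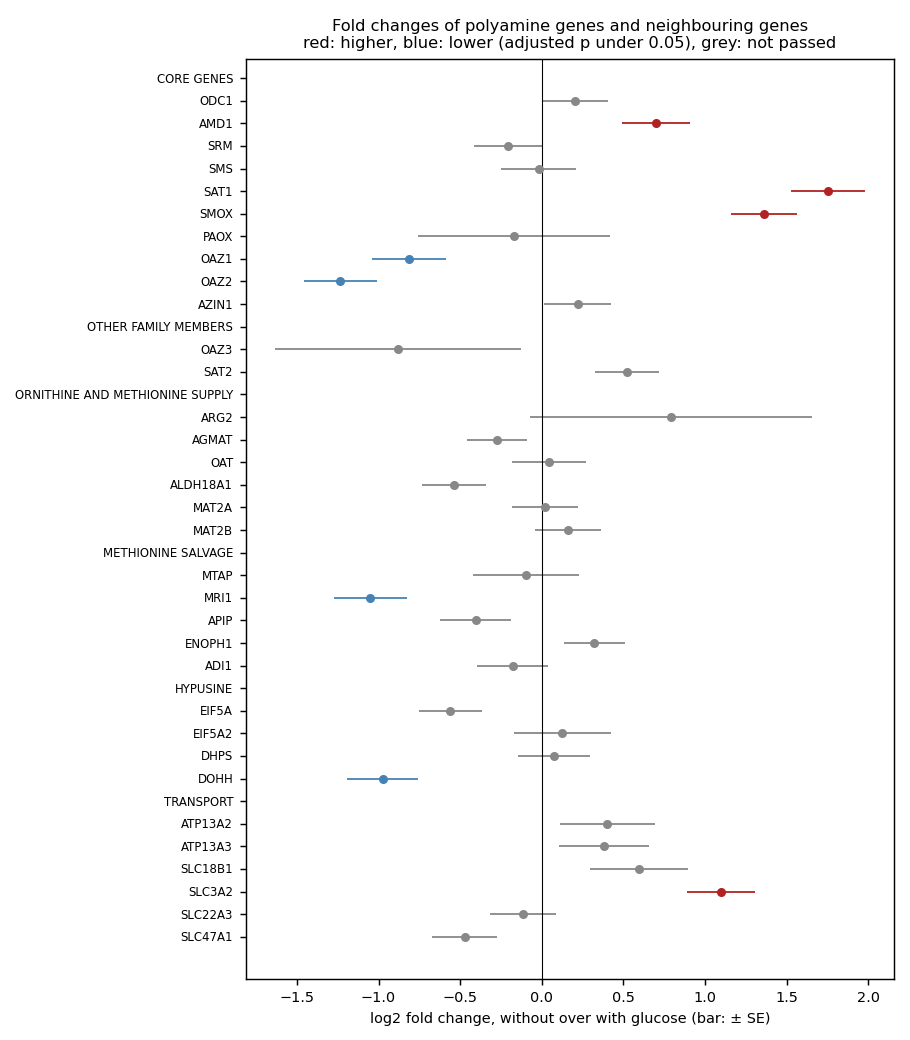
Log2 fold change without over with glucose (horizontal axis, bar ± SE) of the 10 polyamine genes and the 23 tested neighbouring genes, by group; red genes were higher, blue lower and grey did not pass. Among the polyamine genes SAT1, SMOX and AMD1 lie to the right and OAZ1 and OAZ2 to the left, while among the neighbours SLC3A2, MRI1 and DOHH passed.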

How the data were processed

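The authors deposited raw read counts per Entrez gene; the submitters' processing notes name STAR, HTSeq and hg19. Not given in the sources used here are tool versions, annotation and strand setting, so reads of genes that overlap on opposite strands may not be separated. Per the labels' protocols, first strands were made from barcoded oligo-dT primers, pooled by Actb signal and amplified for 12 cycles; molecular identifiers are not mentioned, so counts may include PCR copies. Neither the library sizes nor the tests used the 5 HTSeq summary lines, which made up 55.3% to 56.9% of a library. Reads with more than 1 alignment, counted in these lines, made up 18.4% to 22.2% of the whole library. ODC1, AMD1, SRM, SMS, OAZ1 and EIF5A have pseudogenes that can share such reads, so their levels are uncertain. The share of such reads for each of these genes is not known. Symbols came from a RefSeq table of GRCh38.p14 (19178 of 19240 genes); since the counts are on hg19, coordinates given belong to the printed sequences only.

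The main test was edgeR's quasi-likelihood F test (version 4.0.16; two-sided, TMM scaling, filterByExpr at a minimum count of 10, no covariate, Benjamini-Hochberg adjustment). Each SE was worked back from the log2 fold change and its F statistic and is approximate. Ratios used counts plus 0.5. The fit was tested on simulated data. Alternatives were RLE scaling, library totals, 2 other filters, DESeq2 1.42.0, a replicate block and leaving out each library. Libraries of a group differed beyond sampling noise (chi-square over degrees of freedom 22.1 to 57.3), so none were merged. The members, lists and tests were chosen with earlier results of these data known. All members are named; of the neighbouring genes, those that passed or had under 3 counts in every library, and others as stated.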

Additional observations from a re-analysis of the deposited data

How the results depend on the processing

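SAT1, SMOX, OAZ2, SLC3A2, MRI1 and DOHH kept their direction and passed under all 12 alternatives, with log2 fold changes of 1.55 to 1.91 for SAT1, 1.27 to 1.44 for SMOX and −1.36 to −1.03 for OAZ2. AMD1 did not pass under 5 of the 12 and OAZ1 under 4, as given above for single libraries. When 1 library was left out, 2 to 3 members were higher and 1 to 2 lower. In the whole table, 858 to 1292 genes were higher and 781 to 1232 lower. The lowest values for the whole table came on leaving out replicate 2 with glucose (higher genes) and replicate 3 without glucose (lower genes). The number of higher genes was 870 on leaving out replicate 3 without glucose and 894 on leaving out replicate 3 with glucose. In DESeq2, 4 neighbouring genes were lower, with EIF5A and ALDH18A1 beside MRI1 and DOHH. Leaving out 1 library gave log2 fold changes of −0.19 to 0.15 for SMS and −0.59 to 0.46 for PAOX, and differences in the SMS to SRM ratio of −0.083 to 0.46. PAOX was not tested with the filter at a mean of 20 counts. With a replicate block, 2 members were higher (SAT1 and SMOX) and 1 was lower (OAZ2). In that fit AMD1 had an adjusted p of 0.0708 and OAZ1 of 0.0630 by edgeR, and 984 genes were higher and 911 lower. Same-numbered libraries did not deviate together (correlations −0.27, −0.12 and 0.04), and 1 of 6 libraries correlated best with its own number, so the numbers are not shown to pair libraries. The causes of these changes were not tested. PAOX, OAZ3 and ARG2 rest on few counts (at most 30, 16 and 15 in a library), so their fold changes are imprecise.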
